A study of Mus musculus with 8 samples.

Results

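Genes of voltage-gated, TRP and chloride ion channels were followed in MC3T3-E1 subclone 14, an osteoblastic line from mouse calvaria, after 24 h with 10 µM Yoda1 or with DMSO. Yoda1 is a small molecule that opens the mechanically gated cation channel PIEZO1, and DMSO is its solvent. The genes were chosen by symbol, from the families of potassium (Kcn), sodium (Scn), calcium (Cacn), TRP, ClC (Clcn), anoctamin (Ano), LRRC8 and HCN channels, leaving out names that end in Rik or os, and 98 of the 20972 rows of the table matched. Each treatment has 4 libraries in the labels, and 3 of each were kept by the submitters, who set DMSO replicate 3 and Yoda1 replicate 1 aside because of batch variation. The sample labels give this 1 line throughout, whereas the series' design text describes human bone endothelial cells, and the sample labels were followed. Which libraries entered the table rests on these labels and on the table's name. Separate cultures are not stated for these cells, and the p-values therefore cover the spread among these libraries, which may be technical. The table used gives each gene 1 mean normalized count over both groups and 1 fold change, so values of single libraries and the overlap of the groups are not given. In bulk RNA, fewer cells expressing a gene and less RNA per cell cannot be told apart.

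Voltage-gated channels are membrane proteins whose pore opens when the membrane potential changes, and they are best known from nerve and muscle. Sodium and calcium entry through them depolarises the cell, while potassium channels draw the potential back down and so set the driving force for calcium entry in cells that do not fire. TRP channels are cation channels opened by heat, stretch, swelling, lipids or intracellular calcium. ClC proteins are chloride channels of the surface membrane or chloride-proton exchangers of endosomes and lysosomes, anoctamins are calcium-activated chloride channels or lipid scramblases, and LRRC8 proteins form the volume-regulated anion channel that opens when cells swell. In osteoblasts, calcium entry through L-type and T-type channels, TRPV4 and PIEZO1 is part of the response to load.

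The line's osteoblast label was checked against 8 lineage markers, all of which had a row, and 7 of them had a mean of 10 or more normalized counts, with Bglap below that at 4.70. The lineage markers moved with the treatment as well. Per the authors' deposited table, 6 of the 8 were lower with Yoda1: Runx2 (log2 fold change -0.90, with a standard error, SE, of 0.08), Sp7 (-0.52, 0.08), Alpl (-5.91, 0.67), Col1a1 (-1.45, 0.09), Col1a2 (-1.34, 0.07) and Ibsp (-4.90, 0.14). Spp1 was higher (2.89, SE 0.08), and Bglap did not pass the threshold (-1.85, SE 1.08), in that same table. Of 8 neuronal markers, 4 had a row, and Tubb3, a tubulin gene that is not restricted to neurons, made up most of their signal with 1649 of 1737 normalized counts. Tubb3 was higher with Yoda1 (log2 fold change 1.16, SE 0.09) per the authors' deposited table, whereas the synaptic genes Syt1 and Syp had means of 0.651 and 2.96. Map2 had a mean of 84.4 and did not pass the threshold (-0.61, SE 0.38) in that table. Of 4 heart muscle markers, 3 had a row, and the summed level moved from an implied 17.4 with DMSO to 161 with Yoda1, nearly all of it from the troponin gene Tnnt2 (log2 fold change 3.22, SE 0.30, as read from the authors' deposited table). Of 2 epithelial markers, 1 had a row, Cdh1, with a mean of 17.5. It was lower (log2 fold change -3.29, SE 0.65) per the authors' deposited table. The part of these genes in the channel results was not tested. Piezo1 itself had a mean of 6060 normalized counts (6059.8 before rounding) and a log2 fold change of 0.34 (SE 0.08) per the authors' deposited table.

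Many of the channel genes were barely detected. Of the 98 genes, 49 had a mean below 10 normalized counts, 11 lay between 10 and 100, and 38 reached 100 or more. An adjusted p was given for 61 genes, and the 37 others all had a mean below that of the lowest tested gene in the table, 1.92. The floor of the table could be read as single reads. Of 2316 rows with a mean below 0.2, 2312 carried 1 of 6 recurring values to 6 decimals, 0.152, 0.157, 0.164, 0.165, 0.171 and 0.195, each with a single fold change. These are the means that 1 read in 1 of 6 libraries gives once divided by that library's size factor, which then ranged from 0.857 to 1.09. Of the channel genes, 16 stood at such a value, among them the sodium channel genes Scn4a, Scn3b and Scn4b, the potassium channel genes Kcnc1, Kcnh1, Kcnh3, Kcnh4 and Kcnj6, and Trpc5, Trpm2 and Trpv6. Nothing can be said of a change in these genes at this depth.

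**Figure D1:**
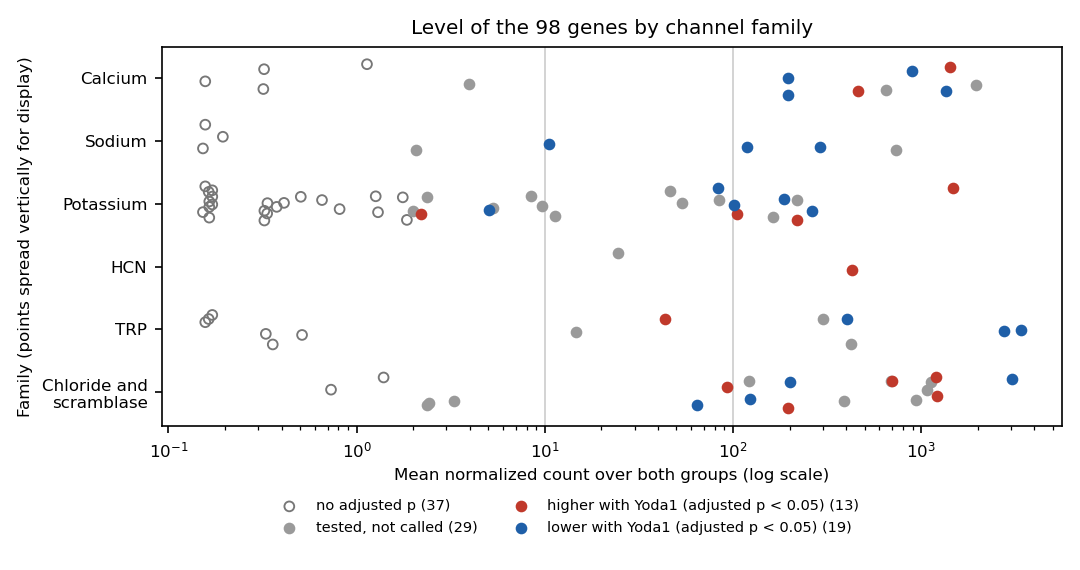
Mean normalized count over both groups (log axis) of the 98 genes by channel family, coloured by the authors' DESeq2 test at an adjusted p under 0.05; grey lines mark means of 10 and 100. Of 42 genes of the potassium family, 29 lie below 10, while 13 of the 20 chloride and scramblase genes reach 100 or more.

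The families differed in how much of their membership was expressed. The potassium channels were the largest family with 42 genes and the sparsest, with a median mean of 1.80 normalized counts and 8 genes at 100 or more. In the chloride and scramblase family, 13 of 20 genes reached 100, as did 8 of 13 calcium channel genes, 5 of 13 TRP genes, 3 of 8 sodium channel genes and 1 of 2 HCN genes. Counts grow with transcript length, so levels of different genes were compared per kb of the longest protein-coding transcript. On that scale of mean normalized count per kb, Cacng7, a gamma subunit that also serves glutamate receptors, was the highest of the channel subunits with 882, followed by the calcium-activated potassium channel gene Kcnn4 with 744, the scramblase gene Ano6 with 613 and the calcium channel beta subunit gene Cacnb3 with 522. The channel-kinase gene Trpm7 stood at 387 per kb. These levels are pooled over both groups. That of Kcnn4 joins implied means of 515 normalized counts with DMSO and 2444 with Yoda1, so its place in the order describes the pooled mean only. The pore genes of voltage-gated sodium channels stood near the other end of the 38 genes with a mean of 100 or more, Scn3a at 30.3 and Scn2a at 13.2 per kb. No spread over libraries is held for these levels, so neighbours in the order were not told apart. The match by symbol also took in 3 genes that encode no channel subunit: Trpc4ap, an adaptor of a ubiquitin ligase, which had the highest mean of all 98 genes (3397 normalized counts), and the noncoding RNA genes Kcnq1ot1 and Kcnmb4os2.

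Channel genes changed in both directions with Yoda1. At an adjusted DESeq2 p under 0.05, as held in the authors' deposited table, 13 were higher and 19 lower of the 61 tested genes, 52.5%, against a background of 44.5% of all 14653 tested genes (22.4% higher and 22.1% lower). The median log2 fold change of the 61 genes was 0.01, against -0.01 over all tested genes. Both shares depend on level. Among genes with a mean of 100 or more, 25 of 38 channel genes passed (65.8%, against 56.5% of all genes at that level), 10 higher and 15 lower, where the background was 29.0% and 27.6%. Between 10 and 100, 5 of 11 passed (background 28.3%), 2 higher and 3 lower (background 12.7% and 15.7%). Below 10, 2 of 12 tested genes passed (background 6.05%), 1 in each direction (background 2.58% higher and 3.47% lower). Scaled to equal summed counts of the groups, which subtracts -0.11 from every log2 fold change, the split became 18 higher and 15 lower, where 28.2% of all tested genes were higher and 17.1% lower. When p was taken from a t distribution (4 degrees of freedom) and not from the normal one, 13 of the 32 calls were left: Cacna1a, Cacna1c, Cacna1g, Cacnb3, Scn2a, Scn3a, Kcnn4, Kcnt2, Trpm6, Trpv4, Ano3, Lrrc8b and Lrrc8c. Those were 6 higher and 7 lower, where 10.4% of all tested genes were higher and 10.0% lower.

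**Figure D2:**
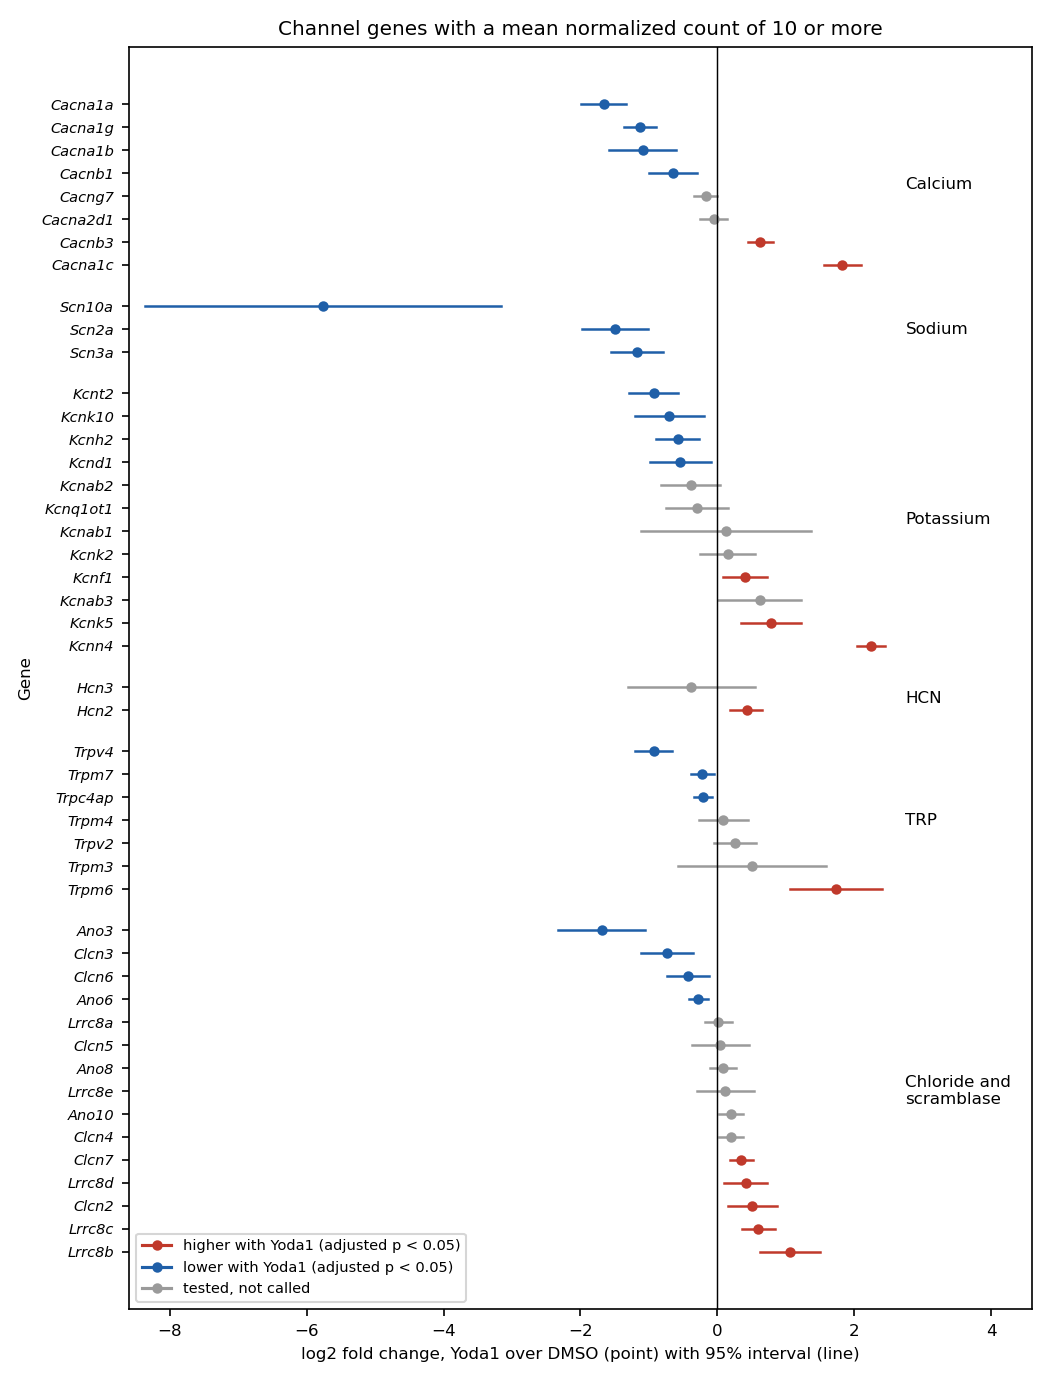
log2 fold change, Yoda1 over DMSO, with its 95% interval for 47 genes with a mean of 10 or more normalized counts, grouped by family. Cacna1c and Kcnn4 stand at 1.83 and 2.25, while Cacna1a, Scn2a and Scn10a stand at -1.66, -1.50 and -5.76.

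The pore genes of voltage-gated calcium channels parted by type, with the L-type gene higher and the 3 other expressed types lower. Of 6 pore genes, 4 were tested and all 4 passed the threshold, 1 higher and 3 lower. All 4 had a mean of 100 or more, where 56.5% of all tested genes passed, 29.0% higher and 27.6% lower. Below, a group mean is the one implied by the deposited mean and fold change when both groups have the same number of libraries. Cacna1c, the pore of the L-type channel of heart, smooth muscle and osteoblasts, had implied means of 202 normalized counts with DMSO and 717 with Yoda1. That was 3.55-fold higher (95% interval 2.95 to 4.28, adjusted p = 6.86e-39, DESeq2, from the authors' deposited table). Cacna1g, the pore of a T-type channel that opens at low voltage, had implied means of 1856 with DMSO and 848 with Yoda1. It was 2.19-fold lower (1.86 to 2.57, 5.66e-20 for the adjusted p that DESeq2 gave in the authors' deposited table). Cacna1a, the P/Q-type pore that triggers transmitter release at synapses, went from 1363 to 431 normalized counts, 3.16-fold lower (2.52 to 3.97, DESeq2, adjusted p = 9.31e-22, the authors' deposited table). Cacna1b, the N-type pore with a similar role at synapses, went from 268 to 126, 2.13-fold lower (1.52 to 2.98, adjusted p = 4.95e-05, DESeq2, from the authors' deposited table). The call of Cacna1b was lost with the t distribution. Summed over the pore genes, the implied means went from 3690 (3689.5 before rounding) to 2122 normalized counts, and Cacna1c made up more of the summed counts with Yoda1 than with DMSO. Cacna1e and Cacna1i, an R-type and another T-type pore, had means of 0.322 and 0.319.

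The auxiliary calcium channel subunits also parted. The cytoplasmic beta subunits bring the pore to the surface membrane and shape its gating. Cacnb3 was 1.55-fold higher (95% interval 1.37 to 1.75), with implied means of 1119.7 and 1734, and Cacnb1 was 1.56-fold lower (1.22 to 2.00), with 239 and 153, as read from the authors' deposited table. Per kb of transcript, Cacnb3 had a mean of 522 normalized counts and Cacnb1 of 57.8, while Cacnb2 and Cacnb4 had whole-gene means of 0.157 and 3.94. The alpha2delta gene Cacna2d1, whose product binds gabapentin, had a log2 fold change of -0.05 (interval -0.25 to 0.14, adjusted p = 0.721 by DESeq2) per the authors' deposited table. Cacng7 had -0.17 (interval -0.34 to 0.00, adjusted p = 0.110 by DESeq2) as read from the authors' deposited table. Neither passed the threshold, and Cacna2d1 turned positive when scaled to equal summed counts.

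The 3 sodium channel pore genes with a mean of 10 or more were lower with Yoda1. Of 5 pore genes, 4 were tested and 3 were lower (Scn10a, Scn2a and Scn3a). Of all tested genes 22.1% were lower, and 27.6% of those at a mean of 100 or more. Scn3a, a pore gene typical of the embryonic nervous system, had implied means of 401 normalized counts with DMSO and 178 with Yoda1, 2.25-fold lower (95% interval 1.73 to 2.94, 1.51e-08 for the adjusted p that DESeq2 gave in the authors' deposited table). Scn2a, a pore gene of the axon initial segment, had 175 and 61.9, 2.82-fold lower (2.02 to 3.94, DESeq2, adjusted p = 1.07e-08, the authors' deposited table). Scn10a, the pore of the tetrodotoxin-resistant channel of sensory neurons, was sparse, with 62.9 normalized reads over 6 libraries. Its implied means were 20.6 with DMSO and 0.380 with Yoda1, and its ratio was 54.1-fold lower with an interval from 8.91 to 329 (adjusted p = 6.57e-05, DESeq2, from the authors' deposited table). That Yoda1 mean is near the floor and is computed from the fitted fold change, so the number of reads behind it is not known. The size of the ratio is therefore poorly known, and the call was lost with the t distribution. Scn9a, the pore of another sensory neuron channel, had a mean of 2.08 and a log2 fold change of -1.92 (SE 1.75, adjusted p = 0.401 by DESeq2) as read from the authors' deposited table.

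Scn3a and Scn2a lie side by side on chromosome 2 in the RefSeq order of protein-coding genes. The nearest gene with a row before them, Cobll1, had a log2 fold change of 0.01 (SE 0.17, adjusted p = 0.983 by DESeq2) as read from the authors' deposited table. On the other side, Csrnp3 and Galnt3 had means of 0.165 and 0.327 normalized counts, and the next expressed gene, Ttc21b, was lower (-0.53, SE 0.11) per the authors' deposited table. Whether the pair moved as a domain was not tested.

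Among potassium channel genes with a mean of 10 or more, the calcium-activated channel gene Kcnn4 rose most. Kcnn4 encodes the intermediate-conductance channel that opens through bound calmodulin when calcium rises and that hyperpolarises cells which do not fire. Its implied means were 515 normalized counts with DMSO and 2444 with Yoda1. It was 4.74-fold higher (95% interval 4.11 to 5.47, 6.99e-99 for the adjusted p that DESeq2 gave in the authors' deposited table), the smallest p of the 61 tested genes, and it passed all 9 alternatives. The summed implied means of the potassium family went from 2222 to 3899 normalized counts. Kcnn4 held 515 of the 2222 with DMSO and 2444 of the 3899 with Yoda1, and 48.3% of the family's summed mean counts pooled over both groups. Without Kcnn4 the family's sum went from 1707 to 1455, so the direction of the family's sum turned on this 1 gene. The small-conductance relatives were scarce: Kcnn1 had a mean of 9.63 (log2 fold change 0.72, SE 0.78) per the authors' deposited table, and Kcnn3 a mean of 0.411. The large-conductance pore gene Kcnma1 had a mean of only 1.76 normalized counts, below the tested range.

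The other potassium channel genes of that level that passed the threshold differed by 1.33-fold to 1.91-fold. Of 20 tested genes of the family, 4 were higher (Kcnn4, Kcnk5, Kcnf1 and Kcnj12) and 5 lower (Kcnt2, Kcnk10, Kcnh2, Kcnd1 and Kcns1). That is 45.0% against the background of 44.5% over all levels. At a mean of 100 or more, 6 of 8 passed, 3 higher and 3 lower, which is 75.0% against 56.5% of all tested genes at that level. The tandem-pore channels, which carry the resting leak of potassium, had 1 gene in each direction. Kcnk5, an alkali-activated leak channel gene, had implied means of 76.6 and 132 normalized counts, 1.73-fold higher (95% interval 1.27 to 2.35) as read from the authors' deposited table. Kcnk10, a leak channel gene whose product responds to stretch, had 103 and 63.6, 1.62-fold lower (1.14 to 2.30) per the authors' deposited table. Its stretch-responsive relative Kcnk2 had a log2 fold change of 0.15 (interval -0.25 to 0.55, adjusted p = 0.600 by DESeq2) as read from the authors' deposited table. The sodium-activated channel gene Kcnt2 went from 245 to 128 normalized counts, 1.91-fold lower (1.49 to 2.44, DESeq2, adjusted p = 2.08e-06, the authors' deposited table). Kcnh2, the delayed rectifier gene of the heart known as hERG, went from 314 to 210 (210.5 before rounding), 1.49-fold lower (1.19 to 1.86) per the authors' deposited table.

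Of 7 Kv genes named Kcna, Kcnb, Kcnc, Kcnd, Kcnf, Kcng or Kcns, 4 were tested. Of those, 1 was higher and 2 lower, beside 22.4% higher and 22.1% lower of all tested genes. The Kcnh genes, with Kcnh2 given above, and Kcnq1 are voltage-gated too and are not in this count. Kcnd1, an A-type pore gene, had implied means of 119 and 82.3 normalized counts and a log2 fold change of -0.54 (SE 0.23, adjusted p = 0.0432 by DESeq2) as read from the authors' deposited table. That call was lost under 5 of the alternatives that set no fold threshold, among them both other scalings (median centring and equal summed counts). Kcnf1, a silent modifier subunit gene, had 187 and 248 and was 1.33-fold higher (95% interval 1.06 to 1.66) per the authors' deposited table, a call lost with no filter on low means and with the t distribution. Kcns1, another silent modifier, had 30.1 normalized reads over 6 libraries and a log2 fold change of -3.16 (SE 1.19, adjusted p = 0.0209 by DESeq2) as read from the authors' deposited table. The inward rectifier gene Kcnj12 had 13.2 normalized reads over 6 libraries and a log2 fold change of 4.62 (SE 1.80, adjusted p = 0.0256 by DESeq2) per the authors' deposited table, and the size of a fold at so few reads is not interpretable. Both calls were lost with the t distribution. Of the 5 tested auxiliary genes, Kcnab1, Kcnab2, Kcnab3, Kcnip2 and Kcnmb4, none passed the DESeq2 threshold, with Kcnab2 at a log2 fold change of -0.39 (interval -0.82 to 0.04) and Kcnab3 at 0.62 (interval 0.01 to 1.22) as read from the authors' deposited table. At an unadjusted p under 0.05, Kcnab3 alone of these 5 would pass (0.0449), and it passed the adjusted threshold as higher when scaled to equal summed counts. Kcnmb4, a subunit of the large-conductance channel, had a mean of 8.43 and a log2 fold change of -1.04 (SE 0.81) per the authors' deposited table.

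HCN channels pass a cation current on hyperpolarisation and pace heart and nerve cells. Hcn2 had implied means of 367 normalized counts with DMSO and 492 with Yoda1, 1.34-fold higher (95% interval 1.14 to 1.58, adjusted p = 0.00162, DESeq2, from the authors' deposited table), a call lost with the t distribution. Hcn3 had a mean of 24.6 and a log2 fold change of -0.38 (SE 0.47) per the authors' deposited table.

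**Figure D3:**
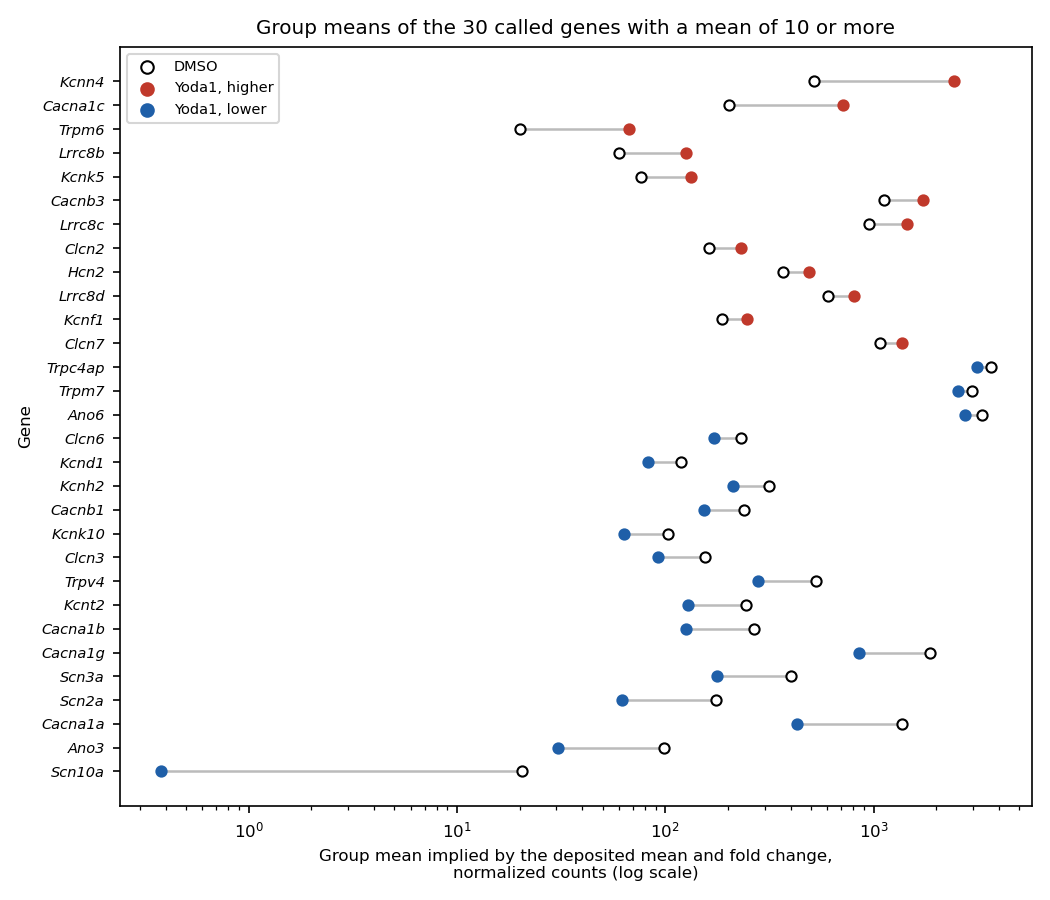
Implied group means in normalized counts (log axis) of the 30 genes that passed the threshold at a mean of 10 or more, open for DMSO and filled for Yoda1, ordered by fold change. Kcnn4 moves from 515 to 2444 and Cacna1c from 202 to 717, while Cacna1a moves from 1363 to 431. No error is drawn because the table holds no values per library.

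Of the TRP genes, the swelling- and stretch-responsive calcium channel gene Trpv4 was lower and the magnesium channel gene Trpm6 higher. Trpv4, which in bone serves osteoblasts and osteoclasts as a calcium entry channel, had implied means of 529 and 278 normalized counts. It was 1.90-fold lower (95% interval 1.58 to 2.29, 1.08e-10 for the adjusted p that DESeq2 gave in the authors' deposited table). Trpm6, an epithelial magnesium channel fused to a kinase, had 20.1 and 67.1, 3.34-fold higher (2.09 to 5.33, DESeq2, adjusted p = 2.65e-06, the authors' deposited table). Its widely expressed relative Trpm7, at a mean of 387 normalized counts per kb, had implied means of 2960 (2959.6 before rounding) and 2544 normalized counts, and was 1.16-fold lower (1.04 to 1.30, adjusted p = 0.0223, DESeq2, from the authors' deposited table). The call of Trpm7 and that of the adaptor gene Trpc4ap (1.16-fold lower, 1.06 to 1.26, per the authors' deposited table) were lost with the t distribution and when scaled to equal summed counts. Trpv2 had a log2 fold change of 0.26 (interval -0.05 to 0.57) and Trpm4, a calcium-activated channel for monovalent cations, 0.09 (interval -0.26 to 0.45) as read from the authors' deposited table, and neither passed the threshold. Trpv2 passed it as higher when scaled to equal summed counts. Of the TRPC channel genes matched, Trpc5 and Trpc7 had means of 0.171 and 0.513 normalized counts.

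The genes of the volume-regulated anion channel were higher or did not pass the threshold. LRRC8A is the subunit every such channel needs, and the partners LRRC8B to LRRC8E set what it carries besides chloride. Of the 5 genes, Lrrc8b, Lrrc8c and Lrrc8d were higher, and the median log2 fold change over all 5 was 0.42. Of all tested genes 22.4% were higher, and 29.0% of those at a mean of 100 or more. Lrrc8b had implied means of 59.8 normalized counts with DMSO and 125 with Yoda1, 2.09-fold higher (95% interval 1.55 to 2.83, 9.11e-06 for the adjusted p that DESeq2 gave in the authors' deposited table). Lrrc8c had implied means of 951 and 1440.1, 1.51-fold higher (1.28 to 1.79, DESeq2, adjusted p = 4.55e-06, the authors' deposited table). Lrrc8d had 603 and 805, 1.34-fold higher (1.07 to 1.66, adjusted p = 0.0226, DESeq2, from the authors' deposited table), a call lost with the t distribution. Lrrc8a had 689 and 695 normalized counts and a log2 fold change of 0.01 (interval -0.18 to 0.21, adjusted p = 0.938 by DESeq2), and Lrrc8e had 117 and 126 and 0.11 (interval -0.30 to 0.53, adjusted p = 0.707 by DESeq2), as read from the authors' deposited table.

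The 3 genes that rose are the 3 that lie side by side on chromosome 5 in the RefSeq order of protein-coding genes. Of the nearest genes with a row on either side, Zfp326, beyond Lrrc8d, was lower (log2 fold change -1.01, SE 0.13), and Gbp6, beyond Lrrc8b, had a mean of 2.32 normalized counts and did not pass the threshold (-1.60, SE 1.49) per the authors' deposited table. Their promoter windows, 250 bases before to 50 after a RefSeq start in build GRCm38.p6, are shown because the genes moved together, with that of Kcnn4 for comparison. RefSeq has a second start for Lrrc8d, whose window (70.3% G and C, 2 GC boxes) is not shown. Letters in capitals mark an AP-1 site (TGACTCA or TGAGTCA) or a GC box (GGGCGG or CCGCCC), the sites found among 5 motifs searched on both strands.
Lrrc8b (chr5:105415525-105415824, plus strand): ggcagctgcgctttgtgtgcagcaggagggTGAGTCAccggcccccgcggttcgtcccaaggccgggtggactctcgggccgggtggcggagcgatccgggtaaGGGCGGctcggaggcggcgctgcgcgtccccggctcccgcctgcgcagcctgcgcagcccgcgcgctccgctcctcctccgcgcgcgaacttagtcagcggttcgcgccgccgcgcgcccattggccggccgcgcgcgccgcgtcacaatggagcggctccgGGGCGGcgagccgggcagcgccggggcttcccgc
Lrrc8c (chr5:105519221-105519520, plus strand): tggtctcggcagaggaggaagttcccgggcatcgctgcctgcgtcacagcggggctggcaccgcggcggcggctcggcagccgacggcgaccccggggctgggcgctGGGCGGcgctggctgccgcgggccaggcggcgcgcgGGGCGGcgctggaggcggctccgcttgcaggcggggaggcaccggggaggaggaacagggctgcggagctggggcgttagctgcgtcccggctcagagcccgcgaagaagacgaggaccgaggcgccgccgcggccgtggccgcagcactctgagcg
Lrrc8d (chr5:105699719-105700018, plus strand): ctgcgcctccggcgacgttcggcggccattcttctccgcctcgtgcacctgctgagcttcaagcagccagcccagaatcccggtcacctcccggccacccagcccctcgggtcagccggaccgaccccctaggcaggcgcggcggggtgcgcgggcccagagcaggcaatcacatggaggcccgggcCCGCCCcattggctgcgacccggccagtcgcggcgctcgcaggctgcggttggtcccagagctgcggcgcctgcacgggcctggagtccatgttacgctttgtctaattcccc
Kcnn4 (chr7:24370013-24370312, plus strand): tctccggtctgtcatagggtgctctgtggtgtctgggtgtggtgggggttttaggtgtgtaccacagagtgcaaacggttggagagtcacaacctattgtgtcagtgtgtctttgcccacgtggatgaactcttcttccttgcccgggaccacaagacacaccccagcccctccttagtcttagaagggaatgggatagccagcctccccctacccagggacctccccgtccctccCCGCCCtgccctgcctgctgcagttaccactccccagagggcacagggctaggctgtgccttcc
All 4 windows hold a GC box, and that of Lrrc8b also holds an AP-1 site. The 3 Lrrc8 windows shown are rich in G and C, with 78.0%, 78.0% and 71.3%, against 59.7% for Kcnn4 and a median of 52.7% over all 32851 windows. Windows were found for 80 of the 98 genes, 109 windows in all, with a median of 59.7% G and C. An AP-1 site was in 5.2% of all windows and in 1 of 18 windows of the higher channel genes and 0 of 20 of the lower ones. A GC box was in 35.7% of all windows, 47.7% of the 109 channel gene windows, 11 of the 18 and 10 of the 20. The 18 windows belong to 13 genes and the 20 to 15 genes, so windows of the same gene are counted separately. The cyclic AMP response element TGACGTCA was in 1.79% of all windows, 0 of the 18 and 1 of the 20, the NFAT core (GGAAAA or TTTTCC) in 23.4% of all, 2 of the 18 and 1 of the 20, and the TATA box (TATAAA or TTTATA) in 13.6% of all, 0 of the 18 and 2 of the 20. A match describes letters in a window and shows no binding.

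Of 8 tested genes for chloride-proton exchangers and chloride channels of the ClC family, 2 were higher and 2 lower, 4 of 8 called, which is near the background of 44.5%. Clcn7, the lysosomal exchanger whose loss causes osteopetrosis through osteoclasts, had implied means of 1069 and 1366 normalized counts, 1.28-fold higher (95% interval 1.14 to 1.43, 0.00011 for the adjusted p that DESeq2 gave in the authors' deposited table). Clcn2, a chloride channel of the surface membrane, had 162 and 231, 1.42-fold higher (1.11 to 1.82) per the authors' deposited table. The endosomal exchanger gene Clcn3 had 154 and 92.3, 1.67-fold lower (1.28 to 2.18), and the late endosomal one Clcn6 had 230 (229.8 before rounding) and 171, 1.35-fold lower (1.08 to 1.67), as read from the authors' deposited table. Those 4 calls were lost with the t distribution, and that of Clcn6 also when scaled to equal summed counts. Clcn4 stood at a log2 fold change of 0.20 (adjusted p = 0.0525 by DESeq2), just outside the threshold, and passed it under both other scalings, and Clcn5 stood at 0.04 (interval -0.37 to 0.46), per the authors' deposited table.

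Of 5 tested anoctamin genes, 2 were lower (Ano3 and Ano6) and the others did not pass the threshold, a share near the background of 44.5%. Ano6, the calcium-dependent lipid scramblase that exposes phosphatidylserine and takes part in bone mineralisation in mice, led the anoctamins with 613 normalized counts per kb and had implied means of 3311 and 2734 normalized counts. It was 1.21-fold lower (95% interval 1.09 to 1.34, DESeq2, adjusted p = 0.000829, the authors' deposited table), a call lost with the t distribution. Ano3 had 98.8 and 30.7, 3.22-fold lower (2.07 to 5.02, adjusted p = 1.38e-06, DESeq2, from the authors' deposited table). Ano10 had a log2 fold change of 0.20 (adjusted p = 0.0607 by DESeq2) and Ano8 of 0.08 (0.532) as read from the authors' deposited table, and Ano10 passed as higher under both other scalings. Ano1, the calcium-activated chloride channel of epithelia, had a mean of 3.30 normalized counts.

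The lower channel genes had longer gene bodies in the median than the higher ones, as did lower genes at large (35.5 kb, against 17.0 kb for higher ones). In GENCODE M21, the median span from first to last exon was 84.7 kb for the 19 lower genes, 41.8 kb for the 13 higher ones and 35.3 kb for the 29 tested genes that did not pass, against 23.3 kb over 12612 tested genes with a length. Of the 61 tested channel genes, 29 fell in the quintile of tested genes with the longest span, and 11 of them were lower and 5 higher. Over all tested genes, 34.0% of that quintile were lower and 17.6% higher, against 14.7% lower and 32.3% higher in the quintile with the shortest span. Length thus moved with the direction of change, and its part in the result was not tested beyond 1 alternative. With a linear trend on transcript length and span removed, a setting added after the data were seen, 14 channel genes were higher and 13 lower, where 23.1% of all tested genes were higher and 20.3% lower, so that both shares of the 61 lay near the background. The calls of Ano6, Clcn6, Kcnd1, Kcnf1, Kcnk10, Trpc4ap and Trpm7 were then lost, while Cacna1c, with a span of 609 kb, was higher with or without the trend.

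**Figure D4:**
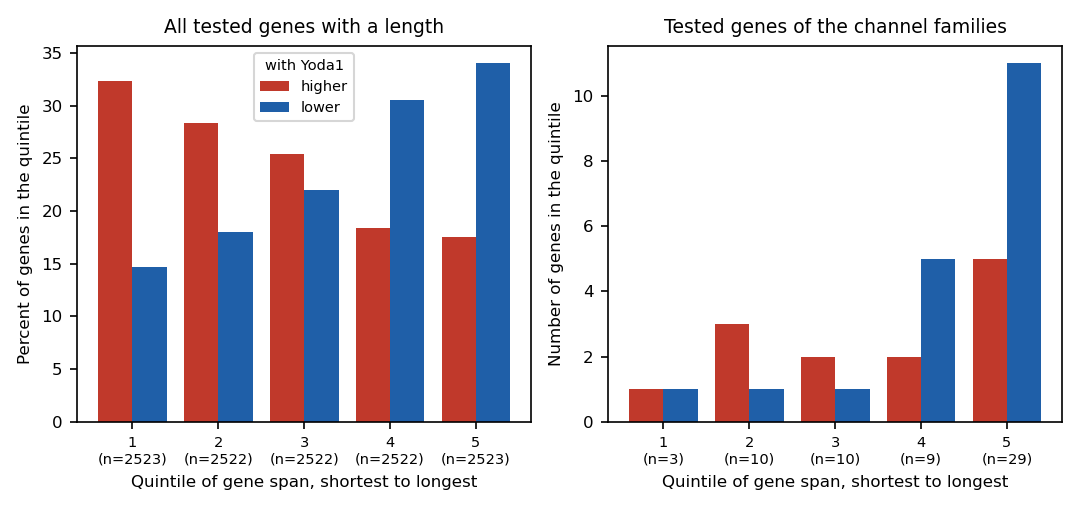
Percent of all tested genes (left) and number of tested channel genes (right) that were higher or lower with Yoda1, by quintile of gene span from shortest to longest, the quintiles being set on all 12612 tested genes with a length. In the longest quintile 34.0% of all genes and 11 of 29 channel genes were lower.

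Partners of these channels and channels outside the name families were read from a list of 83 genes, of which 57 had a row and 43 were tested. Of these, 17 were higher and 10 lower, 62.8% in either direction, against a background of 44.5% (22.4% higher and 22.1% lower). At a mean of 100 or more, which 32 of the 57 reached, the background was 56.5%. The 62.8% also takes in partners below that level, so it is not the matching share for this background. The sodium pump, which builds the gradients that all these channels use, was higher in its beta subunit genes Atp1b3 (log2 fold change 0.81, SE 0.07) and Atp1b1 (1.95, 0.35), per the authors' deposited table. Of the genes for calmodulin, the calcium sensor of KCNN4 and of calcium channels, Calm3 (log2 fold change -0.66, SE 0.06) and Calm2 (-0.35, 0.13) were lower, as read from the authors' deposited table. Of 6 tested genes that control cell volume and chloride, 3 were higher and 1 lower, 66.7% against the background of 44.5%. The background was 56.5% at a mean of 100 or more, which 5 of the 6 reached. The kinase genes Sgk1 and Oxsr1 (log2 fold changes 0.65 and 0.50, SEs 0.09 and 0.08) and Clns1a (0.27, 0.08) rose and Stk39 (-0.33, 0.11) fell, and Wnk1 stood at -0.09 (0.09), per the authors' deposited table.

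Ostm1, the beta subunit of CLCN7, was higher (log2 fold change 0.45, SE 0.10), as was Clcc1, which encodes a chloride channel protein of the endoplasmic reticulum outside the ClC family (0.27, SE 0.10), as read from the authors' deposited table. The proton-activated chloride channel gene Pacc1 was also higher (0.58, SE 0.16) per the authors' deposited table. Of the small GTPases that inhibit voltage-gated calcium channels, Rem1 was higher (0.79, SE 0.18) and Rrad lower (-1.04, 0.43) as read from the authors' deposited table, and Gem, with a mean of 3.71, did not pass. Among 8 tested cation channels of internal membranes, 2 were higher (Tmem38a and Tmem38b, which encode the potassium counter-ion channels of the calcium store) and 2 lower (Tpcn1 and Mcoln2, of endosomes and lysosomes), 4 of 8 called, which is near the background of 44.5%. Their log2 fold changes were 0.58 and 0.42 (SEs 0.22 and 0.18) for the first pair and -0.51 and -2.14 (0.13 and 0.77) for the second, per the authors' deposited table. The calls of Calm2, Stk39, Clns1a, Ostm1, Clcc1, Pacc1, Rem1, Rrad, Tmem38a, Tmem38b, Tpcn1 and Mcoln2 were lost with the t distribution.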

How the data were processed

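RNA-seq libraries of MC3T3-E1 cells were compared between Yoda1 and DMSO. Per the submitters' processing notes, the tools were Salmon and DESeq2 and the build was GRCm39. Per the file headers, the 1 table holds DESeq2 output: a mean normalized count, which is a signal averaged by the authors over libraries, a log2 fold change and its SE, a Wald score, and unadjusted and adjusted p-values as deposited. That ratios are Yoda1 over DMSO was taken from the deposited table's name. The p-values equalled the normal tail of the score and their Benjamini-Hochberg adjustment over 14653 tested rows. The deposited class label equalled an adjusted p under 0.05 with an absolute log2 fold change above 0.5, with 0 exceptions. The mean normalized counts summed to 19849773. The authors' filters and design formula are not given in the sources that were used.

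The main test was the authors' DESeq2 test at an adjusted p under 0.05, since the table holds no values per library for edgeR or limma. Ratios, 95% intervals and implied group means were computed from the deposited values in Python 3.11.15 with numpy 2.4.6, scipy 1.17.1 and pandas 2.3.3, and the recomputed tests were tested on simulated data. Implied group means assume equal groups and are given only at a mean of 10 or more. Lengths came from GENCODE M21 and promoter windows from RefSeq, both on GRCm38, and no coordinates were converted. The members, lists and tests were chosen with earlier results of these data known. Named genes were all that passed the threshold, the highest of each subfamily, genes that did not pass at a mean of 100 or more, and the 20 partners with the smallest adjusted p, with Piezo1. Other channel genes, and Ank3, Calm2, Clcc1, Gem, Rrad, Tmem38a, Tmem38b and Wnk1 among the partners, were named after their values were seen. A few channel genes and partners are counted but not reported by name.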

Additional observations from a re-analysis of the deposited data

How the results depend on the processing

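Counts are of the 98 channel genes. The number higher (13) and lower (19) became 5 and 8 with an absolute log2 fold change above 1, 3 and 7 when tested against a fold of 0.5 on the log2 scale, and 6 and 7 with the t distribution (4 degrees of freedom). The shares of all tested genes higher and lower were 4.92% and 5.22%, 4.79% and 4.72%, and 10.4% and 10.0% under these settings. Under the other alternatives (the authors' class, no filter, a mean of 100 or more, median centring, equal summed counts, and the length trend added after the data were seen) both counts stayed within 1.5 times, from 9 to 18 higher and 13 to 18 lower. The fewer calls under a fold threshold follow from its construction, and the cause of no other shift was tested. Of the 32 calls, 8 held under each of the 9 alternatives that tested them (Ano3 and Trpm6, below a mean of 100, are not tested under that filter): Ano3, Cacna1a, Cacna1c, Cacna1g, Kcnn4, Scn2a, Scn3a and Trpm6. The sign of Cacna2d1 turned to 0.05 with equal summed counts and 0.22 without the length trend, and that of the ankyrin gene Ank3, lower in the main test, to 0.13 without the length trend. No paired analysis was possible because each gene has a single deposited value and libraries have none, and for the same reason leaving out replicates, edgeR and TMM scaling were not run. Depth limits the 49 genes with a mean below 10.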
